A study of Mus musculus with 9 samples.

Results

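The genes described here encode the proteases that cut the extracellular matrix, the inhibitors that restrain them, and the enzymes that modify, fold and crosslink collagen. They were 40 genes chosen by symbol, and 36 of them had at least 1 of the 45281 probes on the array, out of 19057 genes with a named probe in all. They were read in lymph node fibroblastic reticular cells (FRCs), which make and ensheathe the collagen conduits of the node, from female C57BL/6 mice with no stated genetic change. FRCs from 2 brachial nodes were pooled for each animal, and every group had 3 arrays: PBS-draining nodes, and nodes that drained a tumour, taken on day 4 or on day 11. The labels give the PBS nodes no day, the tumour no name and the cell isolation no method. Whether the PBS nodes match day 4 or day 11 in time is thus not known, and tumour and time cannot be told apart.

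Collagen chains are hydroxylated and folded in the endoplasmic reticulum, trimmed at their ends once secreted, and crosslinked by lysyl oxidases into fibres. Matrix metalloproteinases (MMPs), ADAM and ADAMTS proteases, cathepsins and plasmin cut these fibres and release growth factors and surface proteins held near them. The tissue inhibitors of metalloproteinases (TIMPs) block most MMPs, so the balance of both families sets how far a stromal network is remodelled. In lymph nodes that swell, FRCs stretch and then rebuild the conduit network.

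The PBS arrays had 11529 to 16489 detected probes, the day 4 arrays 15198 to 17627, and the day 11 arrays 9606 to 14727. Of 12 FRC markers, all were tested and 10 were detected on every array. Their summed intensity was 22190 to 25228 in PBS, 24756 to 26231 at day 4 and 23634 to 27704 at day 11. At day 11, 5 of the 12 FRC markers were above PBS, with a median log2 change of -0.02 over the 12. Among them, Thy1 was 1.53 ± 0.32 and Pdpn 0.74 ± 0.26 (log2) above PBS at day 11, each without overlap (limma unadjusted p = 0.000665 and 0.017, adjusted p = 0.217 and 0.378). Thy1 and Pdpn are named after their values were seen, and their part in the day 11 differences of the members was not tested. Of 8 endothelial markers, Cdh5, Kdr, Lyve1 and Emcn were detected on no array, while Tek was detected on 8 arrays and Pecam1 on 4. All 6 pericyte and smooth muscle markers were tested, with 3 detected on every array. Of 12 listed myeloid markers 8 were tested and 5 were detected on every array, while Csf1r and Adgre1 failed the filter and Itgam was detected on no array. Of 8 T cell markers 5 were tested and 0 were detected on every array. Some transcripts listed as markers of other cell types were thus detected, and which cells they came from was not tested. In such bulk samples, fewer cells of a type and less RNA per cell cannot be told apart. The p-values measure the spread between these 9 arrays.

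Most members were measurable in these cells. The 36 genes had 73 probes, and 34 genes passed the filter of detection (detection p under 0.01) on at least 3 arrays, 27 of them through a probe detected on all 9 arrays. Mmp13, a collagenase, and Loxl3, a lysyl oxidase, had probes but none that passed. Of the 3 Mmp13 probes, 2 were detected on PBS replicate 3, at log2 levels of 6.88 and 7.32, and on no other array. The single Loxl3 probe was detected on no array. Adamts2, Adamts5, Loxl2 and Serpine2 had no named probe here and were not analysed. All levels below are log2 intensities after background correction and quantile normalization, and levels of different probes are not compared with each other.

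No member changed past the threshold of 0.05 for the Benjamini-Hochberg adjusted p in limma, in any comparison. At day 4 against PBS, 0 of 34 tested members passed, beside 0% of the 8819 genes tested. At day 11 against PBS it was 0 of 34 beside 0.0113% of genes, and at day 11 against day 4 again 0 of 34 beside 0.0113%. The 1 gene behind both of these shares was Ighg1, an immunoglobulin heavy chain gene, which is no member. Each gene was counted by its tested probe with the highest mean, called its brightest probe. On these probes, the lowest adjusted p of any member was 0.649 at day 4 (Mmp9), 0.378 at day 11 against PBS (Timp1) and 0.675 between the days (Adamts15). Over all tested probes of the members, the lowest was 0.515, 0.248 and 0.487, each on a dimmer Mmp3 probe. The 95% interval of a member's log2 change reached 0.76 to either side in the median, and between 0.52 and 1.62, so smaller changes could not be told from none at this number of arrays.

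At an unadjusted p under 0.05 on the brightest probes, limma gave 0 of 34 members at day 4, beside 7.99% of genes (4.72% higher and 3.28% lower). It gave 3 members at day 11 against PBS, Mmp19, Timp1 and Plat, all higher, which is 8.82% beside 10.3% of genes in either direction, 6.18% higher and 4.07% lower. Between day 11 and day 4 it gave 2 members, Adamts15 and Mmp19, both higher at day 11, which is 5.88% beside 6.45% of genes in either direction, 3.11% higher and 3.35% lower. In either direction, the shares of members were below those of all genes. Mmp19 passed the detection filter only through the day 11 arrays, where it is high, so its place in these counts supports nothing, and without it the counts are 2 at day 11 and 1 between the days.

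On their brightest probes, more members lay above than below PBS on both days. At day 4, 22 of 34 members had a log2 change above 0, 64.7% beside 53.8% of genes, with a median of 0.13 beside 0.04 over all genes. At day 11, 26 of 34 were above 0, 76.5% beside 54.1% of genes, with a median of 0.19 beside 0.05. From day 4 to day 11, 23 of 34 were above 0, 67.6% beside 51.5% of genes, with a median of 0.14 beside 0.02. Changes from PBS lay between -0.40 and 1.20 at day 4 and between -0.65 and 1.65 at day 11. The 2 comparisons with PBS share the PBS arrays. Members were chosen with earlier results of these data known, so these shares describe the list and are no test of it.

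**Figure D1:**
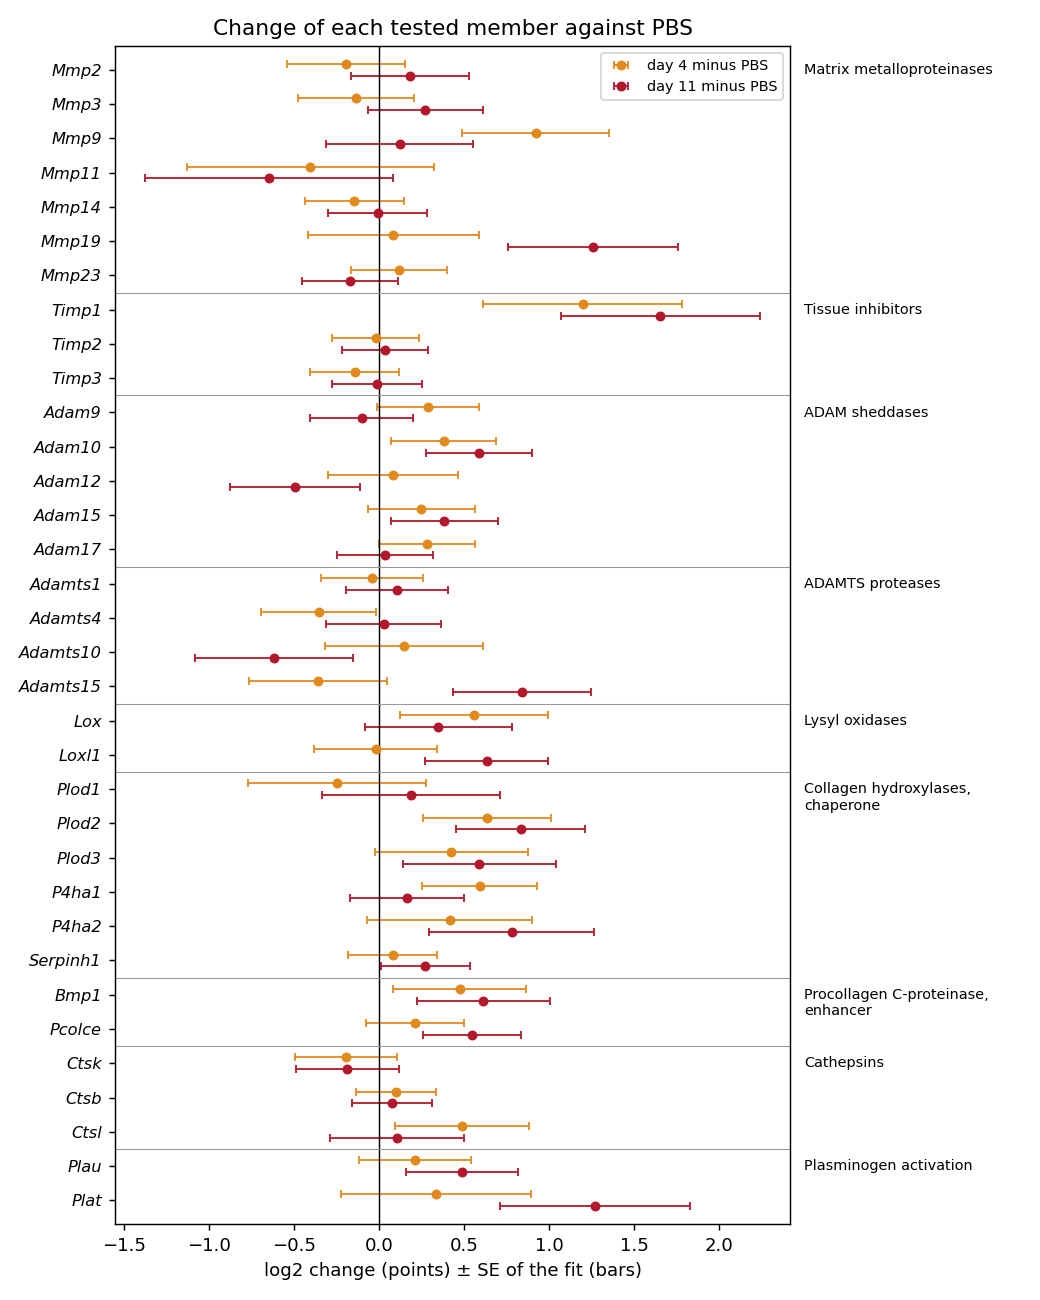
Log2 change of each of the 34 tested members against PBS (x axis, with the standard error of the fit as bars), grouped by role, with day 4 in orange and day 11 in red. At day 11 26 of 34 points lie above 0, Timp1 lies farthest to the right at 1.65, and no member passed the adjusted threshold.

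Among the MMPs, Mmp2, Mmp3, Mmp14 and Mmp23 were detected on all 9 arrays. Of the 7 tested MMPs, 3 were higher than PBS at day 4 and 4 at day 11, beside 53.8% and 54.1% of all genes. Mmp14, the membrane-bound collagenase that activates the gelatinase pro-Mmp2, had log2 levels of 10.25, 10.79 and 10.31 in PBS, 10.43, 10.13 and 10.36 at day 4, and 10.41, 10.11 and 10.81 at day 11. The groups overlapped throughout, with a log2 change of -0.0084 at day 11 (95% interval -0.66 to 0.64). Mmp2 had 9.20, 10.23 and 9.52 in PBS, 9.68, 8.93 and 9.76 at day 4, and 9.84, 9.77 and 9.89 at day 11. The day 11 arrays of Mmp2 lay close together, with an SD of 0.058 against 0.53 in PBS, and above every day 4 array, while PBS overlapped both.

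Mmp19, an MMP that cuts basement membrane and matrix glycoproteins, was near the detection limit. Its tested probe had levels of 5.17, 4.84 and 5.95 in PBS, 4.71, 6.58 and 4.92 at day 4, and 6.65, 6.20 and 6.89 at day 11. It was detected on 1 PBS array, 1 day 4 array and all 3 day 11 arrays, so it was tested only because of its day 11 signal, and the p-values below are no independent evidence. The day 11 arrays were all above PBS, and 1 day 4 array reached the day 11 range. The log2 change at day 11 was 1.26 ± 0.50 (SE, n = 3 per group; limma unadjusted p = 0.031, adjusted p = 0.422) against PBS and 1.18 ± 0.50 (adjusted p = 0.736) against day 4. Because PBS and day 4 means of 5.32 and 5.40 lie near background, the size of these differences is uncertain. With the authors' processed values the difference from PBS was 0.68, and with no background correction it was 0.59.

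Mmp9, a gelatinase known from neutrophils and macrophages as well as stroma, had levels of 6.46, 7.34 and 8.23 in PBS, 8.33, 8.54 and 7.92 at day 4, and 7.20, 7.87 and 7.32 at day 11. All day 4 arrays were above all day 11 arrays, and PBS spanned most of the range. The log2 change was 0.92 ± 0.43 at day 4 against PBS (limma adjusted p = 0.649) and -0.80 ± 0.43 from day 4 to day 11 (adjusted p = 0.811). The summed intensity of the 8 tested myeloid markers was 2263 to 3297 at day 4, against 2971 to 3644 in PBS and 3186 to 4393 at day 11. For neutrophils, 2 of 6 listed markers were tested, with sums of 208 to 706 in PBS, 93 to 403 at day 4 and 359 to 714 at day 11, and Csf3r and Elane were detected on no array. The part of these cells in the Mmp9 values was not tested. Mmp11, an MMP named stromelysin-3, stood at 8.76 in PBS replicate 1 and between 5.49 and 6.90 on the 8 other arrays.

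Mmp3, stromelysin, is a broad protease of fibroblasts whose gene is a textbook target of the AP-1 transcription factor. It was singled out after its values were seen, because its 3 tested probes differed in size. The brightest probe had 10.10, 9.83 and 9.44 in PBS, 10.22, 9.05 and 9.69 at day 4, and 9.94, 10.08 and 10.16 at day 11, so that the groups overlapped. The second probe had 8.93, 8.81 and 9.25 in PBS, 8.31, 8.49 and 7.59 at day 4, and 9.50, 9.26 and 9.51 at day 11. The dimmest had 7.07, 6.86 and 6.05 in PBS, 6.59, 6.23 and 6.33 at day 4, and 7.92, 7.84 and 8.39 at day 11. On both of these probes every day 11 array was above every PBS and day 4 array. From day 4 to day 11 the log2 change was 0.41 ± 0.34 on the brightest probe, 1.29 ± 0.31 on the second and 1.67 ± 0.33 on the dimmest (limma unadjusted p = 0.26, 0.0017 and 0.000479; adjusted p = 0.884, 0.549 and 0.487). At day 4 against PBS, the changes were -0.13, -0.87 and -0.28, and on the second probe every day 4 array was below every PBS array (limma unadjusted p = 0.0176, adjusted p = 0.515). At day 11 against PBS, they were 0.27, 0.42 and 1.39, and the dimmest probe had the lowest p (limma unadjusted p = 0.0018, adjusted p = 0.248). The difference between the days on the second probe thus lay mostly in its low day 4 values, and that on the dimmest probe mostly in its high day 11 values. All 3 probes pointed the same way in each comparison, and none passed. Which transcripts each probe reads was not tested.

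The promoters of Mmp3 and of Mmp13, on the same chromosome, are shown because, among 22 members with an entry in the RefSeq promoter table (build GRCm38.p6), they were the only 2 whose 250 bases before the start held the AP-1 consensus TGANTCA on either strand. That is 9.09% of those members beside 6.75% of all 32851 such windows. The member share counts genes with a match and the other share counts single windows, so the measures differ. Capitals mark the match, which lies at positions -46 to -40 from the start in Mmp3 and -35 to -29 in Mmp13. The windows are chr9:7445572-7445821 for Mmp3 and chr9:7272264-7272513 for Mmp13, both on the plus strand.
Mmp3: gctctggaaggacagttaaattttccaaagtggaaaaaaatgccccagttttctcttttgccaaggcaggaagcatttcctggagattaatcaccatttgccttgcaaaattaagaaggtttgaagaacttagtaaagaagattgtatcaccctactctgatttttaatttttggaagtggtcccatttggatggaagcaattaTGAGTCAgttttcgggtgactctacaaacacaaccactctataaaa
Mmp13: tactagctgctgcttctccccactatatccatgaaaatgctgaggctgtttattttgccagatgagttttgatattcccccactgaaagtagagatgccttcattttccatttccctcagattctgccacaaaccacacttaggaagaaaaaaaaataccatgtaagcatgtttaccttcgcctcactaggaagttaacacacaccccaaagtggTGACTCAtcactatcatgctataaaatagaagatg
A match is a description of letters. Beside these sequences, the 3 Mmp3 probes were detected on all 9 arrays, while Mmp13 was detected on a single PBS array.

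Timp1, a secreted inhibitor of many MMPs that is induced by cytokines in fibroblasts, had the largest difference from PBS of any member. Its brightest probe had levels of 5.15, 6.96 and 7.40 in PBS, 7.10, 7.75 and 8.26 at day 4, and 7.96, 7.64 and 8.87 at day 11. Every day 11 array was above every PBS array, the day 4 arrays overlapped both, and PBS replicate 1 was far below the rest. The probe was not detected on PBS replicate 1, so the size of the differences from PBS is uncertain. The log2 change was 1.65 ± 0.58 at day 11 (a 3.15-fold difference; SE, n = 3 per group; limma unadjusted p = 0.0176, adjusted p = 0.378) and 1.20 ± 0.58 at day 4 (adjusted p = 0.656). A second probe, also not detected on PBS replicate 1, gave 1.81 ± 0.46 at day 11 (limma unadjusted p = 0.0026, adjusted p = 0.254) and 1.04 ± 0.46 at day 4 (adjusted p = 0.621). Without PBS replicate 1, the array with the lowest number of detected probes in PBS, the day 11 difference of the brightest probe was 0.98 (adjusted p = 0.507), and over 17 alternatives it ranged from 0.98 to 2.11 with adjusted p between 0.266 and 0.757.

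The other TIMPs differed little between the groups. Timp2, which also serves as the bridge between Mmp14 and pro-Mmp2, had 11.01, 11.24 and 11.16 in PBS, 11.18, 10.94 and 11.23 at day 4, and 11.07, 11.04 and 11.40 at day 11. Its log2 change was -0.02 at day 4 (95% interval -0.59 to 0.54) and 0.04 at day 11 (-0.53 to 0.60). Timp3, which binds to the matrix and also inhibits ADAM and ADAMTS enzymes, had -0.14 (-0.73 to 0.44) and -0.01 (-0.60 to 0.57), and its 3 probes lay between -0.01 and 0.15 at day 11. These 95% intervals are not adjusted for the number of members, and differences outside them remain possible for both genes.

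**Figure D2:**
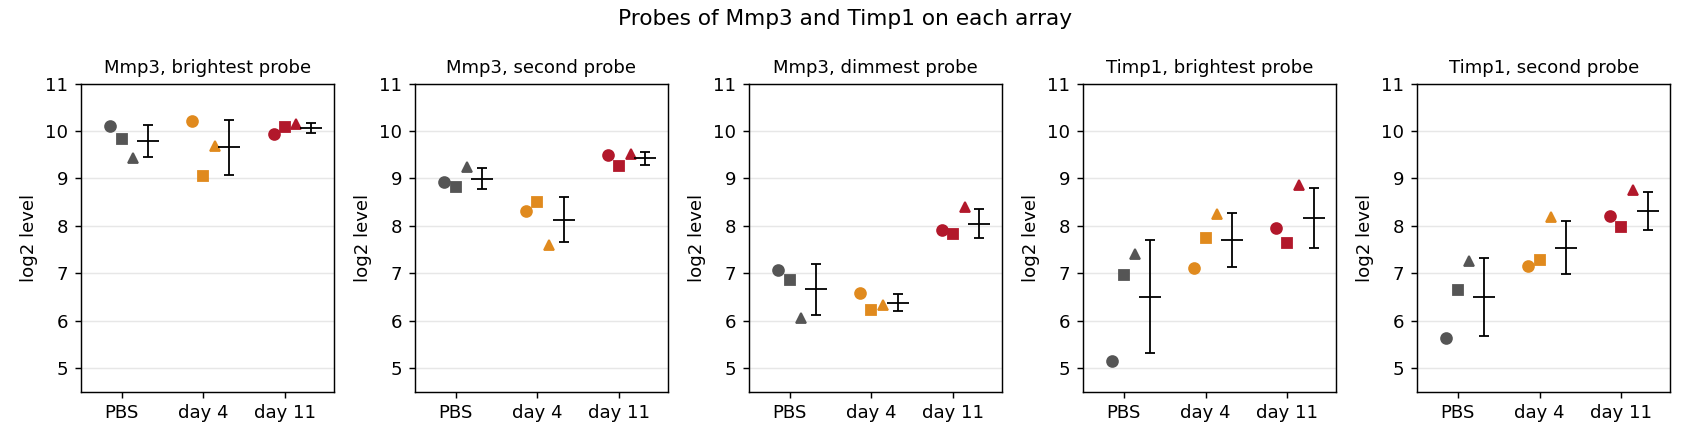
Log2 level (y axis) of the 3 Mmp3 probes and the 2 Timp1 probes on each array of PBS (grey), day 4 (orange) and day 11 (red), with the replicate as circle (1), square (2) or triangle (3) and mean ± SD beside each group. The second and dimmest Mmp3 probes are higher on every day 11 array than on any other array, while the brightest probe overlaps, and PBS replicate 1 is lowest on both Timp1 probes.

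The Timp1 window, chrX:20869916-20870165 on the plus strand, is shown beside those of Mmp3 and Mmp13. It held no TGANTCA and no TGAGTAA, a variant of that site held by 2.25% of all windows and by 0 of the 22 members. Only the bases of this window, before the listed start, were searched. Sites outside the window were not searched, so whether Timp1 has an AP-1 site elsewhere was not tested. Capitals mark a GC box (GGGCGG on either strand), at positions -8 to -3 from the start, a motif held by 16 of 22 members (72.7%) and by 32.7% of all windows.
Timp1: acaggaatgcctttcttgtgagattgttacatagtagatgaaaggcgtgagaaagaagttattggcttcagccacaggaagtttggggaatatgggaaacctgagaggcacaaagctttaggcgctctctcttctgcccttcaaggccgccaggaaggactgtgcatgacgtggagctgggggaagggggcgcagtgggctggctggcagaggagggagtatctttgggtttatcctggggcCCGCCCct
The hypoxia core ACGTG was held by 8 of 22 members (36.4%) and 16.6% of windows, and the TATA box TATAAA by 4 (18.2%) and 12.4%. Members were chosen by name, so these shares describe this list. The member shares count genes and the others count single windows, so they are unlike measures.

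The products of Mmp14, Timp2 and Mmp2 act in one complex at the cell surface, in which Timp2 holds pro-Mmp2 for cutting by Mmp14. Of their 3 pairs, only Mmp14 and Timp2 passed after adjustment, and by Pearson's r only. Over the 9 arrays, Pearson's r was 0.85 between Mmp14 and Timp2 (exact permutation p = 0.0021, adjusted p = 0.0297 over 14 pairs; Spearman's rho 0.87, adjusted exact permutation p = 0.0631). It was 0.72 between Mmp2 and Mmp14 and 0.71 between Mmp2 and Timp2 (exact permutation p = 0.0288 and 0.0333, both adjusted to p = 0.156; rho 0.67 and 0.73, adjusted exact permutation p = 0.275 and 0.218). Within groups, after subtracting each group's mean, r was 0.86, 0.71 and 0.71. Leaving out the 2 arrays farthest from the median of the first gene gave 0.73 for Mmp14 and Timp2, 0.70 for Mmp2 and Mmp14 and 0.31 for Mmp2 and Timp2, so the last relation rests on day 4 replicate 2 and PBS replicate 1. The arrays share 1 normalization, and the range of Timp2 over all arrays was narrow.

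The other 11 pairs whose products act together did not pass (two-sided exact permutation, adjusted p from 0.634 to 0.961 for r). Over all 14 pairs the median r was 0.17, and 9 were above 0. Bmp1 and its enhancer Pcolce had r = 0.39 over the arrays and 0.07 within groups, and Adam10 and Adam17 had -0.22 and -0.51. Ctsb and Ctsl had r = -0.29 over the arrays and -0.79 within groups (rho -0.62, exact permutation p = 0.0857, adjusted p = 0.30).

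**Figure D3:**
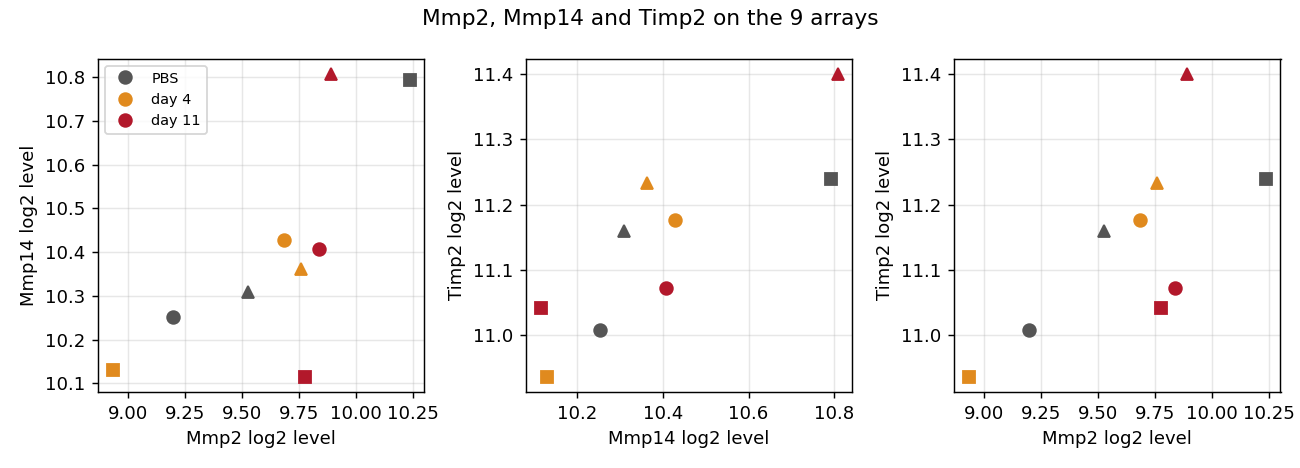
Log2 levels of Mmp2, Mmp14 and Timp2 plotted against each other, 1 point per array, with PBS in grey, day 4 in orange, day 11 in red and the replicate as circle (1), square (2) or triangle (3). Arrays with more Mmp14 also have more Timp2 (r = 0.85 over the 9 arrays), and arrays of the 3 groups are intermixed.

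The ADAM sheddases cut cytokines and receptors from the cell surface. On their brightest probes, they were higher than PBS in 5 of 5 cases at day 4, beside 53.8% of all genes. At day 11 it was 3 of 5, beside 54.1%. Their changes from PBS on these probes ran from -0.49 to 0.59. The second tested probes of Adam15 and Adam17 went the other way at day 4, at -0.43 and -0.17. Adam10, the sheddase of Notch and of cadherins, had the lowest p of this group over the 3 groups, with levels of 8.07, 8.84 and 8.55 in PBS, 9.13, 8.68 and 8.80 at day 4, and 8.75, 9.41 and 9.06 at day 11. Its groups overlapped, with a log2 change of 0.59 ± 0.31 at day 11 (limma adjusted p = 0.528). Adam12, a sheddase of activated fibroblasts, had 8.96, 8.94 and 8.78 at day 4 and 7.99, 8.21 and 8.76 at day 11. All its day 11 arrays were below day 4, while PBS, at 9.10, 9.36 and 7.98, spanned both (log2 change -0.57 ± 0.38 from day 4; limma adjusted p = 0.839). Adam17, which releases TNF, had 0.04 at day 11 on its brighter probe. Its dimmer probe had 7.89, 7.92 and 8.29 in PBS, 7.87, 7.52 and 8.20 at day 4, and 7.45, 7.17 and 7.48 at day 11. Every day 11 array of this probe was below every PBS and day 4 array, with a log2 change of -0.66 ± 0.28 from PBS (limma unadjusted p = 0.0404, adjusted p = 0.452).

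Of the ADAMTS proteases, which cut aggrecan, versican and procollagen ends, 4 were tested. Of these, 1 was higher than PBS at day 4 and 3 at day 11, beside 53.8% and 54.1% of all genes. Adamts15, an aggrecan- and versican-cutting enzyme, had levels of 7.01, 8.14 and 6.81 in PBS, 7.44, 7.01 and 6.43 at day 4, and 8.22, 7.87 and 8.40 at day 11. All day 11 arrays were above all day 4 arrays, and 1 PBS array, replicate 2, lay within the day 11 range. The log2 change from day 4 to day 11 was 1.20 ± 0.41 (limma unadjusted p = 0.0143, adjusted p = 0.675), and from PBS to day 11 it was 0.84 ± 0.41 (adjusted p = 0.499). Over 18 alternatives the change between the days ranged from 0.79 to 1.44, and the lowest adjusted p was 0.384. Adamts10, which binds fibrillin microfibrils, was detected on 2 PBS arrays, 2 day 4 arrays and no day 11 array, and its signal there gave no bound above 1-fold. Adamts1 and Adamts4, which cut aggrecan and versican, had log2 changes of -0.04 and -0.36 at day 4 and of 0.11 and 0.03 at day 11 on their brightest probes, and the 3 Adamts1 probes did not share a sign.

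**Figure D4:**
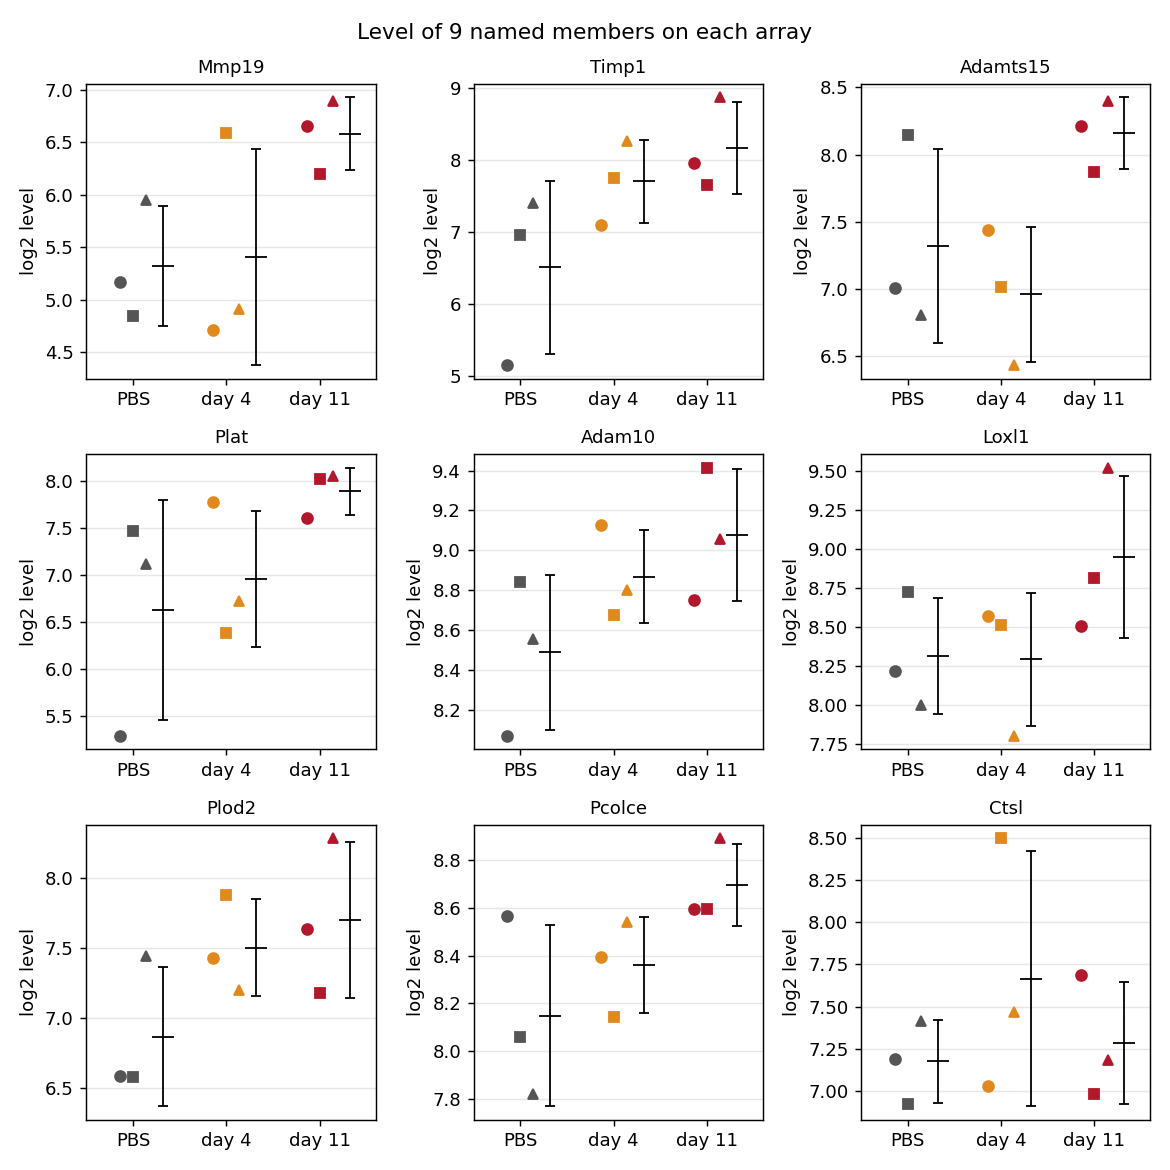
Log2 level (y axis, scaled per gene) of 9 members on each array of PBS (grey), day 4 (orange) and day 11 (red), with the replicate as circle (1), square (2) or triangle (3) and mean ± SD beside each group. For Mmp19, Timp1, Plat and Pcolce the day 11 points lie above all PBS points, and PBS replicate 1 is lowest for Timp1, Plat and Adam10.

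No tested member that modifies, folds, trims or crosslinks collagen passed. Among these members, on the brightest probes, only Pcolce had every day 11 array above every PBS array. All 6 genes of collagen hydroxylation and folding had day 11 means above PBS, beside 54.1% of all genes, with changes from 0.16 to 0.83, and 5 of 6 had at day 4, beside 53.8%. On the brightest probes, the arrays of all 6 overlapped between day 11 and PBS, while the second Plod2 probe had every day 11 array above every PBS array. Plod2, which hydroxylates the collagen telopeptides used for stable crosslinks, had levels of 6.58, 6.58 and 7.44 in PBS, 7.43, 7.88 and 7.20 at day 4, and 7.63, 7.18 and 8.28 at day 11. Its highest PBS array overlapped both tumour groups, with a log2 change of 0.83 ± 0.38 at day 11 (limma unadjusted p = 0.0521, adjusted p = 0.481). Its 2 other probes gave 0.54 and 0.42 at day 11 but -0.08 and -0.38 at day 4, against 0.64 on the brightest. P4ha1 and P4ha2, the catalytic subunits of collagen prolyl hydroxylase, had 0.16 and 0.78 at day 11, and the probes of each gene differed in sign. Serpinh1, the collagen chaperone, had 0.27 (95% interval -0.31 to 0.85), with both of its probes above 0. Plod1 and Plod3 had 0.19 and 0.59.

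Pcolce, which speeds the removal of the procollagen C-terminal end, had levels of 8.57, 8.06 and 7.82 in PBS, 8.39, 8.14 and 8.54 at day 4, and 8.60, 8.59 and 8.89 at day 11. The 3 day 11 arrays were above all PBS and all day 4 arrays, by a narrow margin, with a log2 change of 0.55 ± 0.29 from PBS (limma adjusted p = 0.528). Bmp1, the C-proteinase itself, had 9.73, 11.06 and 9.47 in PBS, 10.52, 10.44 and 10.72 at day 4, and 10.60, 10.70 and 10.80 at day 11. PBS replicate 2 was the highest array for Bmp1, so the groups overlapped on this brightest probe, and its 3 tested probes gave 0.61, 0.87 and 0.60 at day 11. On the second probe, every day 11 array was above every PBS and day 4 array (limma unadjusted p = 0.0324, adjusted p = 0.428). The 2 tested lysyl oxidases, which crosslink collagen and elastin, were also above PBS at day 11, beside 54.1% of all genes. Loxl1 had 8.22, 8.73 and 8.001 in PBS, 8.57, 8.51 and 7.81 at day 4, and 8.51, 8.82 and 9.52 at day 11. Its groups overlapped on this brightest probe, with a log2 change of 0.63 ± 0.36 at day 11 (limma adjusted p = 0.565). On the second Loxl1 probe, every day 11 array was above every PBS array, with a change of 0.85 (limma adjusted p = 0.514). Lox had 0.35 ± 0.43.

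Of the plasminogen activators, both tested genes were above every PBS array on every day 11 array, beside 10.9% of all genes. Plat, tissue-type plasminogen activator, had levels of 5.29, 7.47 and 7.11 in PBS, 7.77, 6.38 and 6.72 at day 4, and 7.60, 8.02 and 8.06 at day 11. The log2 change at day 11 was 1.27 ± 0.56 (limma unadjusted p = 0.0465, adjusted p = 0.469), and without PBS replicate 1, on which the probe was not detected, it was 0.60 (adjusted p = 0.660). Over 17 alternatives the change ranged from 0.60 to 1.69 and the adjusted p from 0.278 to 0.788. Plau, urokinase, had 9.07, 9.54 and 9.23 in PBS, 10.15, 9.25 and 9.07 at day 4, and 9.74, 9.65 and 9.91 at day 11. Day 4 replicate 1 was its highest array, and the log2 change at day 11 was 0.49 ± 0.33 (limma adjusted p = 0.620).

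The cathepsins, lysosomal proteases of which Ctsk degrades collagen, had log2 changes from -0.19 to 0.11 at day 11. Ctsb had 10.81, 10.92 and 10.79 in PBS, 11.00, 10.89 and 10.92 at day 4, and 10.87, 10.96 and 10.93 at day 11, so that the 9 arrays spanned little and its log2 changes of 0.10 and 0.08 had 95% intervals of -0.43 to 0.62 and -0.45 to 0.60. Ctsl had 7.19, 6.92 and 7.41 in PBS, 7.03, 8.50 and 7.47 at day 4, and 7.69, 6.98 and 7.18 at day 11. Day 4 replicate 2 alone was high, and the log2 change at day 4 was 0.49 ± 0.39 (limma adjusted p = 0.816). Ctsk had -0.19 on both days.

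On the brightest probe of each gene, 5 members had every day 11 array above every PBS array (Mmp19, Timp1, Pcolce, Plau and Plat), which is 14.7% beside 10.9% of genes, and 0 of 34 had every day 11 array below, beside 7.26% (18.2% in either direction). Of these 5, Mmp19 was tested only through its day 11 signal, which leaves 4 without it. At day 4, no member's arrays were all above or all below PBS on this probe, beside 10.5% of genes (6.23% above and 4.31% below). Between the days, Mmp2, Adamts15 and Pcolce were higher on all day 11 arrays (8.82% beside 7.9%) and Mmp9 and Adam12 lower (5.88% beside 7.6%), 14.7% beside 15.5% in either direction. Of the 12 members with several tested probes, all probes shared a sign in 5 at day 4, in 7 at day 11 and in 11 between the days.

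The members lay at different levels on single arrays. When 1 array was left out, their median change at day 11 against PBS was 0.18 to 0.33, beside 0.19 on all 9 arrays. The median level of the 34 members, relative to the PBS mean of each gene, was -0.18, 0.23 and -0.06 on the PBS arrays, 0.23, 0.13 and 0.09 at day 4, and 0.14, 0.29 and 0.36 at day 11. The ranges of PBS and day 11 overlapped. Day 11 replicate 3 was the highest array for 13 of 34 members, beside 11% of all genes. PBS replicate 1 was the lowest for 8 of 34, a share close to the 24.6% of all genes that were lowest there. Day 11 replicate 3 had the fewest detected probes (9606), and the part of signal quality in these differences was not tested. The collagen hydroxylation group reached 0.94 on that array, against 0.23 and 0.31 on the other day 11 arrays and 0.32 on PBS replicate 2. The median SD of members within a group was 0.44 in PBS, 0.32 at day 4 and 0.27 at day 11, beside 0.49, 0.42 and 0.30 over all genes.

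**Figure D5:**
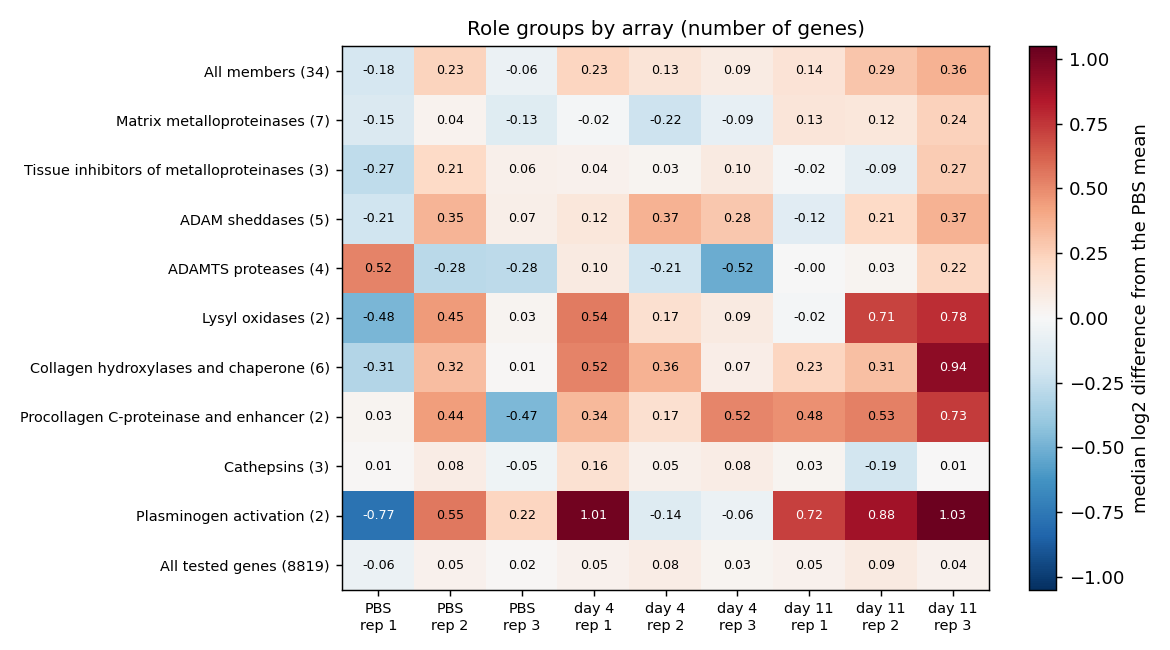
Median log2 difference from the PBS mean of each role group (rows, with the number of tested genes) on each of the 9 arrays (columns), with values printed in the cells. The collagen hydroxylation and folding genes are highest on day 11 replicate 3 (0.94), and the plasminogen activators are lowest on PBS replicate 1 (-0.77) and highest on day 11 replicate 3 (1.03).

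Among other genes of matrix turnover, none was called in any comparison. Of 17 other collagen modifying and folding genes 14 were tested. Of these, 12 were above PBS at day 11 (median 0.32), beside 54.1% of all genes (median 0.05). At a limma unadjusted p under 0.05 there were 2 of the 14, both higher, beside 6.18% of all genes that were higher. The 2 with the lowest p in any comparison were Fkbp14, a folding enzyme of the endoplasmic reticulum (0.66 ± 0.27 at day 11 against PBS; limma adjusted p = 0.430), and Loxl4, a further lysyl oxidase. Loxl4 had 5.72, 6.47 and 5.77 at day 4 and 7.31, 7.05 and 7.22 at day 11 (1.21 ± 0.44; limma adjusted p = 0.700), while PBS, at 5.35, 5.96 and 7.20, spanned both. The 13 tested of 35 other metalloproteinases and inhibitors differed in direction, with 4 of 13 above PBS at day 11, beside 54.1% of all genes. Their median was -0.33. Of the 32 with a probe, 15 were detected on no array, among them Mmp7, Mmp8, Mmp10 and Mmp12.

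Within that list, Adamts12, a protease of cartilage matrix, had 9.95, 9.53 and 9.69 in PBS and 8.74, 8.60 and 8.91 at day 4. All its day 4 arrays were below PBS (-0.98 ± 0.28; limma adjusted p = 0.434). Adam23, an adhesion protein without protease activity, had 6.49, 6.93 and 7.47 at day 4 and 8.33, 8.81 and 8.32 at day 11 (1.52 ± 0.39; limma adjusted p = 0.556). Of 25 other serine and cysteine proteases and inhibitors 21 were tested, with 12 above PBS at day 4 (median 0.03) and 14 at day 11 (median 0.20). Over all genes, 53.8% and 54.1% were above PBS on these days. Among them Ctso, a lysosomal cathepsin, had 0.69 ± 0.26 at day 4 (limma adjusted p = 0.543) and Prss23, a secreted serine protease, 1.12 ± 0.46 from day 4 to day 11 (adjusted p = 0.732).

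The collagen chains on which these enzymes act were measured on the same arrays. Of 15 tested chains, 5 were above PBS at day 4 (median -0.09) and 10 at day 11 (median 0.08). The shares over all genes were 53.8% (median 0.04) and 54.1% (median 0.05). Col3a1, a fibrillar chain of reticular fibres, had 11.65, 11.70 and 11.59 in PBS and 11.94, 12.22 and 12.44 at day 11, with all day 11 arrays higher (0.55 ± 0.25; limma adjusted p = 0.487). Col5a3, a chain that regulates fibre diameter, was detected on 1 PBS array and had 1.12 ± 0.42 at day 11 (limma adjusted p = 0.396).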

How the data were processed

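Gene expression was measured on 9 Illumina bead arrays, 3 per group. Per the file headers, the deposited raw table held a linear intensity and a detection p-value for each probe on each array, with no normalization between arrays. The authors' processed values were also deposited intensities on a linear scale that share one distribution, and the deposited processing note names lumi, a variance-stabilizing transformation, quantile normalization and limma. Here neqc of limma 3.58.1 in R 4.3.3 corrected background from the detection p-values (offset 16), quantile normalized and took log2. A probe was tested if detected at p under 0.01 on at least 3 arrays (16577 probes, 8819 genes, each read by its probe with the highest mean). Symbols came from the platform annotation (34885 probes with 1 symbol, 18 with several, 10378 unnamed), of which 34807 were matched to RefSeq. Groups were compared with lmFit and eBayes on the 9 arrays (6 residual degrees of freedom), and p-values were adjusted by Benjamini-Hochberg across every tested probe. Correlations used exact two-sided permutation, adjusted over 14 pairs and added to a plan that had no test for them. The fit was checked on simulated data.

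Members and lists were chosen with earlier results of these data known. Values on every array are given for members with an unadjusted p under 0.05 in a comparison, or otherwise the lowest F-test p of their role group, and for further members chosen after their values were seen (Mmp2, Mmp3, Mmp9, Mmp11, Mmp14, Timp2, Adam12, Adam17, Bmp1, Ctsb and Plau). Of each other matrix list, the 2 genes with the lowest p are named. Replicate numbers are shared by the groups, and deviations of same-numbered arrays correlated between -0.05 and 0.06 over 9 pairs of arrays, so they were not treated as paired. Alternatives changed the background correction, scaling, source of values, filter, variance prior, block, arrays and probe summary.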

Additional observations from a re-analysis of the deposited data

Results flagged for a closer look

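A Mmp19 probe that failed the filter and entered no comparison was detected on 2 of 3 day 4 arrays and on no PBS or day 11 array, with a mean log2 level of 6.08 at day 4, where the PBS mean was 5.15 and the day 11 mean 5.23. The tested Mmp19 probe had its highest levels at day 11, and this difference between the probes was not tested.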

How the results depend on the processing

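No member was called under any of the 18 alternatives in any comparison, and no named member passed. Over all genes, the count at day 11 against PBS was 1 and became 4 with no background correction, 11 with a trended variance prior, and 0 with no filter, with probes detected on all arrays, with the replicate block and with only the groups compared. Between the days it was 1 and became 2 with the trended prior and 0 with no filter, probes detected on all arrays, the replicate block and only the groups compared. Both ranged from 0 to 1 when 1 array was left out. The replicate block changed no call of a member. The median change of the members at day 11 was 0.18 to 0.33 when 1 array was left out, highest without PBS replicate 2; it was 0.08 to 0.22 at day 4 and 0.03 to 0.21 between the days. The median r of the pairs was 0.085 with the mean of probes and 0.086 to 0.36 when 1 array was left out. Small day 4 changes turned sign: Mmp19 with 75th percentile scaling (-0.042) and on leaving out an array (-0.51 to 0.43), Loxl1 with the mean of probes (0.15) and on leaving out an array (-0.18 to 0.22), and, on leaving out an array, Adamts15 (-0.62 to 0.051), Plat (-0.33 to 0.76) and Mmp3 (-0.42 to 0.17). So did Ctsl at day 11 (-0.094 to 0.26) and between the days (-0.70 to 0.036), and Plod2 between the days (-0.10 to 0.46). The causes were not tested. A slide block was not run, since no slide is given, and Mmp19, Timp1 and Plat had no value where detection on all arrays was required. The number of arrays limits precision, and dim probes have uncertain sizes.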
